A study of Rattus norvegicus with 6 samples.

Results

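The 8 genes Th, Ddc, Dbh, Pnmt, Slc6a2, Slc6a3, Maoa and Phox2a, which make, carry, degrade or specify catecholamines, were followed across 6 pools of rat tissue labelled cerebellum. They are 8 of the 26419 features tested. The genes were grouped by function, and the group was chosen by the measured spread of Th between the pools, so the levels of Th are a description and receive no test. Because the other members share a pathway with Th and were chosen with results of these arrays known, their levels in single pools are described in the same way. Expression was read from single-colour NimbleGen oligonucleotide arrays carrying Cy3-labelled material, 1 array for each pool. Every pool combined 3 male Sprague-Dawley rats of 8 to 10 weeks and 240 to 260 g, which had been fasted and then dosed by gavage. The 3 alcohol pools came from rats given 40% alcohol at 15 ml/kg, and the 3 saline pools (the labels write brine) from rats given an equal volume of saline. The labels name no transgene or further agent in either group, and the differences among the rats inside 1 pool cannot be seen.

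Catecholamines are built from tyrosine in a chain of enzymes: tyrosine hydroxylase (Th) makes L-DOPA, aromatic L-amino acid decarboxylase (Ddc) turns it into dopamine, dopamine beta-hydroxylase (Dbh) into noradrenaline, and phenylethanolamine N-methyltransferase (Pnmt) into adrenaline. The plasma membrane transporters for noradrenaline (Slc6a2) and dopamine (Slc6a3) take the released amines back up, and monoamine oxidase A (Maoa) oxidises them. Phox2a is a homeodomain factor required for noradrenergic neurons. The cerebellum receives noradrenergic fibres whose cell bodies lie in the locus coeruleus of the brainstem, and Th is also found in some cerebellar Purkinje cells of rodents.

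The promoters of Th, Dbh and Slc6a3 are shown because these 3 genes had the widest gap between the pools that are compared below. Each is the stretch of 250 bases before the RefSeq start in the rat assembly GRCr8, written 5′ to 3′ on the gene's strand, at chr1:207508219-207508468 (minus strand) for Th, chr3:30886078-30886327 (plus strand) for Dbh and chr1:31578963-31579212 (minus strand) for Slc6a3. Capitals mark the matches to a searched motif.
Th: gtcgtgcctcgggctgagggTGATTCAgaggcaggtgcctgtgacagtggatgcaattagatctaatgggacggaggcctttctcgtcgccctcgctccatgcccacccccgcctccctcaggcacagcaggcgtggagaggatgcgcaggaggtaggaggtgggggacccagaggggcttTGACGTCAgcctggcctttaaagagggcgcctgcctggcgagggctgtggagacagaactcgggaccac
Dbh: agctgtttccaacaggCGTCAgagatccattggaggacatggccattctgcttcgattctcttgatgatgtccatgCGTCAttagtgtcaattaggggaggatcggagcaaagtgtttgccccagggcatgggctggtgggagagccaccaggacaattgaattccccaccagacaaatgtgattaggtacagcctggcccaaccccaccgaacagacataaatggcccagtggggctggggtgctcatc
Slc6a3: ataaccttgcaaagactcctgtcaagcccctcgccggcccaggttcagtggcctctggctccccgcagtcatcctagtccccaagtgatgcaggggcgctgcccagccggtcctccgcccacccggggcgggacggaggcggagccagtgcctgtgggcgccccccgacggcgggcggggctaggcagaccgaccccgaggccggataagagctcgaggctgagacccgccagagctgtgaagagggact
The Th promoter held a full cyclic AMP response element, TGACGTCA, starting 69 bases before the start, and an AP-1 match, TGATTCA, 230 bases before it. The Dbh promoter held the short element TGACG on the opposite strand, printed as CGTCA, 234 and 174 bases before its start. No searched motif was found in the 250 bases of Slc6a3. Among 33469 rat promoters of this length, TGACGTCA was present in 1.59%, TGACG (which also lies inside TGACGTCA) in 18.2% and TGANTCA in 6.34%, on either strand. The homeodomain core TAATTA was present in 4.86%, the GATA site AGATAA in 10.3% and TATAAA in 12.9%, and none of these was found in the 3 printed promoters. RefSeq promoters were matched for 6 of the 8 members, with 3 starts for Ddc and 8 promoters in all. The matched members were Th, Ddc, Dbh, Slc6a3, Maoa and Phox2a. A match is a description of letters, and factor binding was not measured.

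Levels are log2 RMA intensities, and an intensity of 50 (5.64 on the log2 scale) served as the floor under which levels have no order. The random-sequence probes averaged 23.3 to 25.5 on the 6 arrays, the median feature 213.2 to 232.8, and 66.9% to 68.8% of features reached 50. Levels are compared within a gene only, because probes of different genes differ in brightness.

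The tissue label was checked against cell markers before any group was compared, and alcohol pool 2 and saline pool 1 stood apart. Pcp2, a Purkinje cell gene, read 13.54, 5.27 and 13.42 in alcohol pools 1 to 3 and 5.65, 13.60 and 13.44 in saline pools 1 to 3. Gabra6, a granule cell receptor subunit, read 14.00, 5.20 and 14.18 in the alcohol pools and 7.49, 13.97 and 14.04 in the saline pools. Alcohol pool 2 and saline pool 1 were below the other 4 for 9 of 10 Purkinje and 9 of 10 granule cell markers, and Pcp2 lay under the floor in alcohol pool 2 and at it in saline pool 1. The hindbrain patterning gene Hoxa2 ran the other way, at 10.60 in alcohol pool 2 and 10.38 in saline pool 1 and under the floor in the remaining 4. Of 9 hindbrain markers measured, 5 were above the other pools in both, and their summed intensity ran from 558 to 3868 over the alcohol pools and from 717 to 4649 over the saline pools. All 8 oligodendrocyte markers were also higher in both, and none of 8 forebrain markers was. Levels are therefore given per pool, and group differences with these pools and without them, and the part that tissue makeup plays in any difference was not tested. In bulk tissue, fewer cells of a type and less RNA per cell cannot be told apart.

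Each member that reached the floor read highest in saline pool 1. Of the 8 members, 6 reached an intensity of 50 in at least 1 pool, and all 6 were highest in saline pool 1. Dbh and Slc6a2 reached the floor in that pool alone, so their place was fixed by the floor. Th was the gene whose spread selected the group. The share of all features that were highest in saline pool 1 was not counted. Th, Ddc, Slc6a3 and Maoa reached the floor in at least 3 pools, and only Ddc and Maoa did so in all 6. In those 4 genes alcohol pool 2 was the next highest, above each of the remaining 4 pools. Over all features, 21.5% had both of these pools above the other 4 and 21.1% had both below, so 4 members of 8 above and 0 below stand against a background in which this split is common. The split and the height of saline pool 1 are part of the spread on which Th was selected, and nothing is read from either count.

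**Figure D1:**
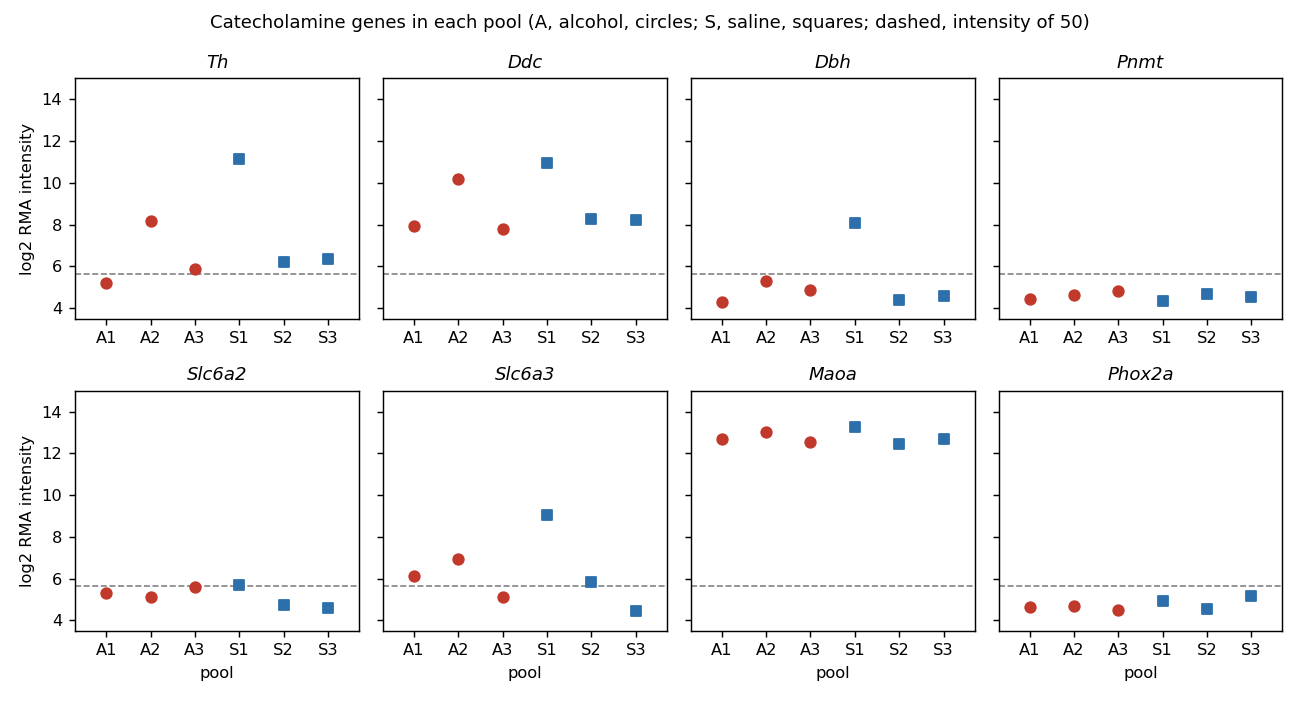
Log2 RMA intensity (vertical axis) of each of the 8 genes in the 6 pools, 1 point per pool, with alcohol pools (A1 to A3) as red circles, saline pools (S1 to S3) as blue squares and the floor of 50 (log2 5.64) as a dashed line. Th, Ddc, Dbh and Slc6a3 are highest in saline pool 1, and Pnmt and Phox2a stay under the floor in every pool.

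Th, the rate-limiting enzyme, had the widest range. Its log2 level was 5.21, 8.18 and 5.85 in alcohol pools 1, 2 and 3 and 11.15, 6.20 and 6.37 in saline pools 1, 2 and 3. On the linear scale this was an intensity of 2266 in saline pool 1 and 290.7 in alcohol pool 2, while alcohol pool 3 and saline pools 2 and 3 lay at 57.8, 73.7 and 82.8 and alcohol pool 1 under the floor. Saline pool 1 exceeded alcohol pool 2 by 7.80-fold, alcohol pool 3 by 39.2-fold, and saline pools 2 and 3 by 30.7-fold and 27.4-fold. Against alcohol pool 1 it was at least 45.3-fold higher, taken against the floor. The treatment groups overlapped, because a pool of each group was high.

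Ddc, which serves dopamine and serotonin synthesis alike, was measured above the floor in every pool. Its log2 level was 7.94, 10.18 and 7.78 in the alcohol pools and 10.97, 8.27 and 8.21 in the saline pools. Alcohol pool 2 was close to saline pool 1 here, with a ratio of 1.73, compared with 7.80 for Th. The remaining 4 pools were 6.47-fold to 9.10-fold below saline pool 1 and near one another.

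Dbh, which makes noradrenaline, was above the floor in saline pool 1 alone. Its log2 level there was 8.09, an intensity of 272.6, and it read 4.28, 5.31 and 4.88 in the alcohol pools and 4.37 and 4.59 in saline pools 2 and 3. Saline pool 1 was at least 5.45-fold above each other pool. Pnmt, which makes adrenaline, stayed under the floor in all 6 pools, between 4.36 and 4.84, so Pnmt was not detectable at this signal.

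Of the uptake carriers, the dopamine transporter Slc6a3 followed the order of Th at the top. It read 6.12, 6.95 and 5.11 in the alcohol pools and 9.06, 5.85 and 4.44 in the saline pools. Saline pool 1 was 4.32-fold above alcohol pool 2, 7.67-fold above alcohol pool 1 and 9.26-fold above saline pool 2. It was at least 10.7-fold above alcohol pool 3 and saline pool 3, both of which lay under the floor. The noradrenaline transporter Slc6a2 read 5.33, 5.14 and 5.58 in the alcohol pools and 5.70, 4.72 and 4.60 in the saline pools. Only saline pool 1, at an intensity of 52.1, passed the floor, and by a factor of 1.04, so Slc6a2 was at the limit of measurement throughout.

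Maoa varied least among the 4 members that reached the floor in at least 3 pools, over a range of 0.79. It read 12.67, 13.03 and 12.55 in the alcohol pools and 13.26, 12.47 and 12.70 in the saline pools. Saline pool 1 exceeded alcohol pool 2 by 1.17-fold and the other pools by 1.47-fold to 1.73-fold. Phox2a lay under the floor in all 6 pools, between 4.49 and 5.19, including the pool with the highest Th and Dbh.

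Saline pool 1 and alcohol pool 2, neither of which showed the cerebellar pattern, were also set directly against each other. With values under the floor raised to it, Th was 2.96 log2 units higher in saline pool 1, Dbh 2.45, Slc6a3 2.11 and Ddc 0.79, while Maoa differed by 0.23. Over all features, 0.795% were at least 1 log2 unit higher in saline pool 1 and 0.0719%, which is 19 features, at least 2 units higher. Th, Dbh and Slc6a3 are 3 of those 19. This contrast uses the same values that selected the group, each pool is a single array, and nothing is inferred from the share.

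**Figure D2:**
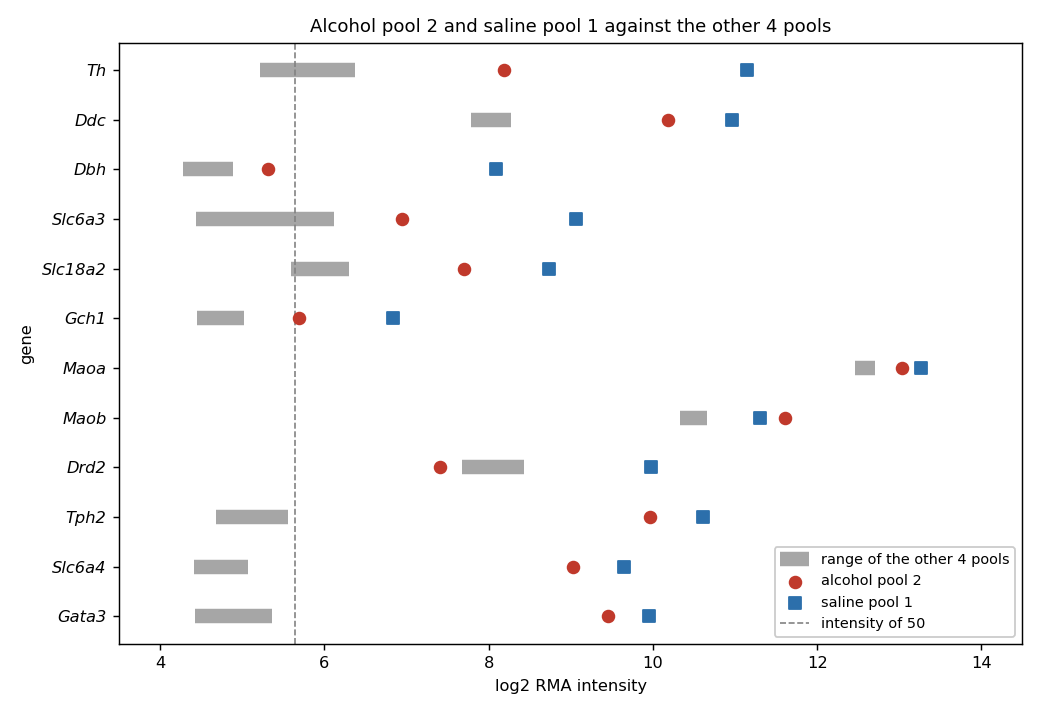
Log2 RMA intensity (horizontal axis) of 12 genes (rows) in alcohol pool 2 (red circles) and saline pool 1 (blue squares), with a grey bar for the range of the other 4 pools and a dashed line at an intensity of 50. The circle and the square of Th lie at 8.18 and 11.15, whereas those of the serotonin enzyme Tph2 lie close together at 9.96 and 10.61.

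Serotonin neuron genes gave a comparison for amine-making cells in the same pools. Tph2, the rate-limiting enzyme of brain serotonin synthesis, read 4.97, 9.96 and 5.30 in the alcohol pools and 10.61, 4.68 and 5.56 in the saline pools. The serotonin transporter Slc6a4 read 5.07, 9.03 and 4.41 in the alcohol pools and 9.65, 4.41 and 4.84 in the saline pools. Both genes were far above the floor in alcohol pool 2 and saline pool 1 and under it in the other 4. The gap between those 2 pools was 0.65 for Tph2 and 0.62 for Slc6a4, against 2.96 for Th. The other serotonin markers ranged more widely, with gaps of 0.50 for Gata3, 0.28 for Slc22a3 and 1.47 for the serotonin receptor Htr1a. The transcription factor Fev ran the other way, at -0.62 with saline pool 1 raised to the floor, and Lmx1b lay under the floor in all pools. In all, 5 of 7 serotonin markers were above the other pools in both, beside 21.5% of all features. The summed intensity of the list ran from 223 to 2456 over the alcohol pools and from 155 to 3657 over the saline pools.

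Genes of midbrain dopamine neurons had no single pattern over the pools. Of 7 such markers measured, 2 were above the other 4 pools in both alcohol pool 2 and saline pool 1, and 1 was below. Over all features the shares were 21.5% above and 21.1% below, and nothing is read from the count. Slc6a3, a member of the selected group, is 1 of the 2 above. The summed intensity of the 7 ran from 3036 to 7395 over the alcohol pools and from 3029 to 11637 over the saline pools, most of it from Aldh1a1. Aldh1a1, an aldehyde dehydrogenase found in a subset of dopamine neurons, read 11.33, 12.75 and 11.24 in the alcohol pools and 13.27, 11.17 and 10.97 in the saline pools. The dopamine receptor Drd2 read 7.67, 7.40 and 7.79 in the alcohol pools and 9.98, 8.39 and 8.43 in the saline pools, so that it was high in saline pool 1 without being raised in alcohol pool 2. Nr4a2, a factor needed for dopamine neurons, was lower in those 2 pools, at 6.74 and 6.90, than in the other 4, which lay between 7.88 and 9.13. Pitx3, a factor specific to midbrain dopamine neurons in the brain, was near or under the floor in every pool. It passed the floor only in alcohol pools 2 and 3, at 5.90 and 5.89, and was under it in saline pool 1.

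The pathway around the 8 genes was covered by 7 lists holding 55 genes, of which 54 were measured and 47 reached the floor in at least 1 pool. Both alcohol pool 2 and saline pool 1 were above the other pools in 25 of the 54 and below them in 8. Over all features the shares were 21.5% above and 21.1% below. Of the 54, 4 (7.41%) were at least 1 log2 unit higher in saline pool 1 than in alcohol pool 2, beside 0.795% of all features. None of the 54 was at least 2 units higher. The 4 were Gch1, Slc18a2, Otx2 and Cartpt, with gaps of 1.14, 1.03, 1.11 and 1.75. For Otx2 and Cartpt, alcohol pool 2 was raised to the floor, and Otx2 was lower in both pools than in the other 4. The lists were chosen with results of these arrays known, and nothing is read from the share.

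Genes for tetrahydrobiopterin, the cofactor of Th and of tryptophan hydroxylase, were above the other pools in both in 6 of 8 cases: Gch1, Gchfr, Pts, Spr, Qdpr and Pcbd1. Gch1, which controls the entry into cofactor synthesis, read 5.02, 5.69 and 4.45 in the alcohol pools and 6.83, 4.93 and 4.55 in the saline pools, and passed the floor only in alcohol pool 2 and saline pool 1. Pcbd1, which recycles the cofactor, read 7.64, 9.99 and 7.69 in the alcohol pools and 10.52, 7.94 and 8.24 in the saline pools. Gchfr, the feedback regulator of Gch1, read 6.61, 8.70 and 7.45 against 8.96, 7.53 and 7.62. Qdpr, which regenerates the cofactor, read 11.27, 12.51 and 10.54 against 12.71, 10.77 and 10.94.

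Among 8 genes of vesicle loading and secretory granules, 5 were above and 2 below the other pools in both. Slc18a2, the vesicular monoamine transporter of neurons, read 5.60, 7.70 and 5.76 in the alcohol pools and 8.73, 5.77 and 6.29 in the saline pools. The granule proteins Vgf and Scg2 followed the same order, with 10.27 for Vgf in saline pool 1, 9.78 in alcohol pool 2 and 6.48 to 7.34 elsewhere. Scg2 read 14.62 in saline pool 1, 14.10 in alcohol pool 2 and 11.85 to 12.34 elsewhere. Slc18a1, the vesicular transporter of endocrine cells, was lower in both, at 6.53 in alcohol pool 2 and 6.32 in saline pool 1, against 7.31 to 8.11 in the others.

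Breakdown enzymes other than Maoa were above the other pools in both in 6 of 8 cases. Maob, the other monoamine oxidase, read 10.34, 11.61 and 10.36 in the alcohol pools and 11.30, 10.34 and 10.66 in the saline pools, and was highest in alcohol pool 2. Among 5 low-affinity transporters of amines and organic cations, 3 were above in both and 1 below. Slc22a2, an organic cation transporter, read 7.00, 10.09 and 6.16 in the alcohol pools and 9.08, 6.63 and 5.97 in the saline pools, again with alcohol pool 2 on top.

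Transcription factors known from noradrenergic neurons gave a mixed picture. Of 9 measured, 5 reached the floor, 2 were above in both and 1 was below. Tfap2b, which is also a gene of developing cerebellum, read 11.14, 5.30 and 11.36 in the alcohol pools and 5.82, 11.52 and 11.39 in the saline pools. Gata3, which marks serotonin neurons as well, read 4.81, 9.45 and 5.11 against 9.95, 4.43 and 5.36. Factors of dopamine neurons ran lower in both pools for 3 of 8, namely Nr4a2, En2 and Otx2, and higher for 0. En2, which is also expressed in cerebellum, read 10.03, 6.24 and 9.57 in the alcohol pools and 5.80, 10.12 and 9.79 in the saline pools. Of 8 receptors and peptides typical of noradrenergic cell groups, 3 were above in both and 1 below. Adra2a, the alpha-2A adrenergic receptor, read 5.57, 7.51 and 5.19 against 7.63, 5.35 and 4.88. The peptide gene Cartpt passed the floor only in saline pool 1, at 7.39.

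**Figure D3:**
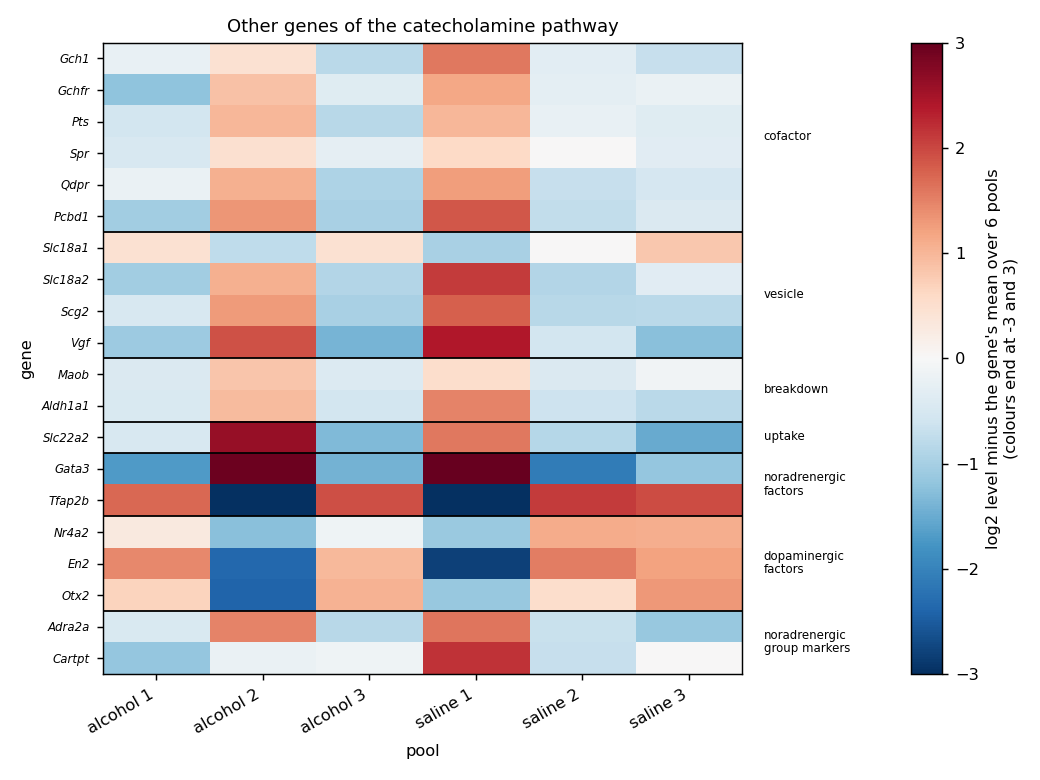
Heat map of pathway genes named in the text (rows, grouped by list) over the 6 pools (columns). Each gene shown reached an intensity of 50 in at least 1 pool, and Slc22a3 and Pitx3 are not shown. Colours give the log2 level minus the gene's mean over the pools and end at -3 and 3. Slc18a2, Gch1 and Pcbd1 are highest in saline pool 1 and next in alcohol pool 2, whereas Tfap2b and En2 are lowest in those pools.

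The features whose pattern lay closest to Th were found by the root mean square difference of their 6 deviations from their own mean. Over the 6 pools the closest were Tac1 at 0.40, Dlk1 at 0.48, Slc10a4 at 0.52, Prph at 0.58 and Slc5a7 at 0.62 log2 units. Tac1, the substance P precursor, read 4.78, 7.03 and 4.78 in the alcohol pools and 9.44, 5.29 and 4.99 in the saline pools. Dlk1, a transmembrane protein related to Notch ligands, read 5.53, 7.82 and 5.93 against 9.97, 5.66 and 6.18. Because the features were picked for this likeness, the shared height of saline pool 1 and lesser height of alcohol pool 2 adds nothing to it. Slc10a4, a protein of monoaminergic and cholinergic vesicles, read 5.22, 8.14 and 4.94 against 9.67, 5.28 and 5.55. Prph, the neuronal intermediate filament peripherin, read 4.78, 7.01 and 4.94 against 8.81, 4.98 and 5.35. Slc5a7, the choline transporter of cholinergic neurons, read 4.59, 5.88 and 4.25 against 8.79, 4.68 and 5.29. Values under the floor entered these distances as measured. Tac1, Slc10a4, Prph and Slc5a7 passed the floor only in saline pool 1 and alcohol pool 2, so their likeness rests on those pools. For Dbh the closest were Tox2 at 0.19, Cpne4 at 0.27, Asic2 at 0.34, Nts at 0.38 and Cartpt at 0.43. Dbh was under the floor in 5 pools, so this likeness rests on saline pool 1.

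Whether acute alcohol changed these genes was asked by setting the 3 alcohol pools against the 3 saline pools. In the limma fit over all 26419 features, 0% of features passed an adjusted p of 0.05, 3.90% passed an unadjusted p of 0.05, and 4.98% had groups that did not overlap. Of the members, 0 of 8 had groups that did not overlap, and of the 7 tested besides Th 0 passed either threshold, with a smallest unadjusted limma p of 0.254. Group differences are given for the 4 members that reached the floor in at least 3 pools.

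Th averaged 6.42 ± 1.56 in the alcohol pools and 7.91 ± 2.81 in the saline pools (SD, n = 3 each), a log2 difference of -1.49 (SE 1.49) given without a test. It was 0.13 without saline pool 1, -2.37 without alcohol pool 2 and -0.75 (SE 0.27) in the 4 pools that carried cerebellar markers. Alcohol pool 1 was under the floor for Th, and raised to it the 4-pool difference was -0.54. Ddc averaged 8.63 ± 1.34 and 9.15 ± 1.58 (SD, n = 3 each), a difference of -0.52 (95% interval -2.85 to 1.82, limma adjusted p = 1.00). It turned to 0.39 without saline pool 1, moved to -1.29 without alcohol pool 2 and was -0.38 (SE 0.16, limma adjusted p = 0.655) in the 4 pools. Slc6a3 averaged 6.06 ± 0.92 and 6.45 ± 2.37 (SD, n = 3 each), a difference of -0.39 (95% interval -3.24 to 2.46, limma adjusted p = 1.00). It read 0.92 without saline pool 1, 0.09 without alcohol pool 3 and 0.47 in the 4 pools, but alcohol pool 3 and saline pool 3 lay under the floor. With values under 50 raised to 50, a choice made after seeing the data, the Slc6a3 difference was -0.61 in all pools, 0.49 without saline pool 1, -0.32 without alcohol pool 3 and 0.14 in the 4 pools. Maoa averaged 12.75 ± 0.25 and 12.81 ± 0.41 (SD, n = 3 each), a difference of -0.06 (95% interval -0.71 to 0.59, limma adjusted p = 1.00). It turned to 0.17 without saline pool 1, to 0.04 without alcohol pool 3 and to 0.02 in the 4 pools. For Maoa the interval over all 6 pools leaves out a change of 1 log2 unit in either direction, and for Ddc and Slc6a3 it does not.

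**Figure D4:**
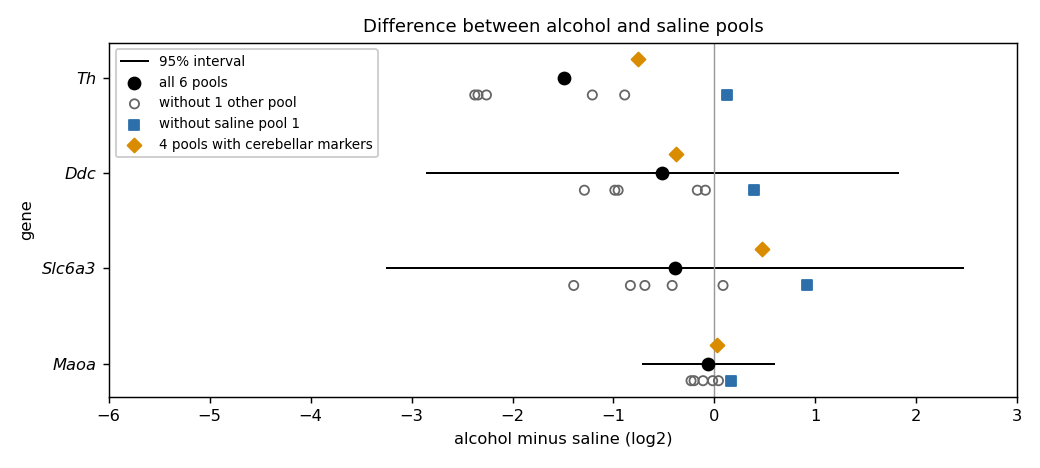
Difference in mean log2 intensity, alcohol minus saline (horizontal axis), for Th, Ddc, Slc6a3 and Maoa in all 6 pools (black, with 95% limma intervals except for Th), with each pool left out (open circles, or a blue square for saline pool 1) and in the 4 pools with cerebellar markers (orange diamonds). Values under the floor enter as measured, and the sign for Th, Ddc, Slc6a3 and Maoa turns when saline pool 1 is left out.

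No direction is counted over the 8 members, because Dbh, Slc6a2, Pnmt and Phox2a lay under the floor in at least 5 of 6 pools. In the pathway lists, 35 of 54 genes had lower and 19 higher means in the alcohol pools, beside 54.1% of all features with lower means. The median difference of the 54 was -0.12 log2 units in all pools and -0.06 in the 4 cerebellar pools, beside -0.02 over all features in both. None of the 54 passed the adjusted limma threshold, and the 3 with an unadjusted p under 0.05 were under the floor in all 6 pools. The share with lower means ran from 40.0% in the low-affinity transporter list to 100% in the cofactor list. Over all 6 pools the median of the 8 cofactor genes was -0.33, and none passed the test. In the 4 cerebellar pools their median was -0.30, but not every cofactor gene was lower there. Qdpr read 11.27 and 10.54 in those alcohol pools against 10.77 and 10.94 in the saline pools, and Gch1 lay under the floor in all 4.

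The authors' deposited table of averaged intensities held 4 of the 8 members. In the authors' deposited table Th averaged 128.5 in the alcohol group and 807.6 in the saline group, a ratio of 6.28. Saline pool 1 supplied 93.5% of the saline sum behind that mean. In the authors' deposited table Ddc averaged 541.8 and 869.5, Slc6a3 75.8 and 204.2, and Maoa 6960 and 7376, and saline pool 1 supplied 76.8%, 87.1% and 44.3% of these saline sums. On the linear scale a single bright pool weighs more than on the log2 scale, where the Th difference was -1.49 in place of -2.65.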

How the data were processed

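Each array file deposited by the authors gave a linear RMA intensity per sequence and a count of probe pairs (5 for 26368 of 26419 features). The submitters' processing notes list RMA and no version; scanner, genome build and whether the arrays were normalized jointly are not given in the sources used here. An entry for random-sequence probes was left out. The authors' deposited value table held the 18107 features that reached an intensity of 50 on at least 3 arrays.

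Intensities were taken to log2 with no further scaling, and the brightest row stood for a gene (each member had 1 row). Names came from RefSeq genes of GRCr8, and 20681 features were matched by gene identifier. Alcohol and saline pools went into a linear model with treatment as its single term (lmFit and eBayes of limma 3.58.1, R 4.3.3; two-sided; Benjamini-Hochberg over all features; threshold 0.05), and the code was tested on simulated data. An exact permutation test of 3 against 3 pools cannot go below p = 0.10. A p-value here covers only pool-to-pool spread, and the number of arrays limits the precision. Python 3.11.15, pandas 2.3.3, numpy 2.4.6 and matplotlib 3.10.9 were used.

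The members, lists and alternatives were chosen with earlier results of these data known. Named genes were all members, a few fixed pathway genes (among them Slc18a2, Gch1 and Maob), up to 3 genes per list with the widest range among those reaching 50, and the 5 features closest to Th and to Dbh. Not every gene so selected is described, and some items are not reported here. Genes outside that rule were named because a count of theirs is given, or to check a label. Alternatives covered scaling, filter, variance moderation, array weights, replicate block, tissue markers and each pool left out.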

Additional observations from a re-analysis of the deposited data

How the results depend on the processing

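In all 16 fits, 0 features, 0 members and 0 pathway genes passed the adjusted limma threshold. The smallest adjusted p of any feature was 0.130, without alcohol replicate 2, and the lowest for a member other than Th was 0.394, for Slc6a2 with array weights. Over the fits the lowest adjusted p was 0.452 for Ddc, 0.849 for Slc6a3 and 0.867 for Maoa. At an unadjusted p under 0.05 the count of features ran from 503, with the filter on dim features, to 2893, with array weights, beside 1030 as reported. Leaving out each pool in turn moved the log2 difference from -2.37 to 0.13 for Th, from -1.29 to 0.39 for Ddc, from -1.39 to 0.92 for Slc6a3 and from -0.23 to 0.17 for Maoa. Without saline replicate 1 all 4 signs turned, to 0.13, 0.39, 0.92 and 0.17. Without alcohol replicate 3, Slc6a3 turned to 0.09 and Maoa to 0.04. Slc6a3 was 0.47 in the 4 arrays with cerebellar markers and 0.50 with array weights, and Maoa was 0.023 in the 4 arrays. Raising values under 50 to 50, added after seeing the data, gave -1.35 for Th and -0.61 for Slc6a3; without alcohol replicate 3 Slc6a3 was then -0.32. The cause of these turns was not tested. The gap between saline pool 1 and alcohol pool 2 moved by at most 0.04 log2 units under median centring and quantile normalization for Th, Ddc, Slc6a3 and Maoa. Deviations of pools with the same replicate number correlated at -0.63, -0.68 and 0.60, so the numbers were not treated as pairs. These correlations move with the pools that lack cerebellar markers (alcohol pool 2 with saline pool 1, 0.84), and a pairing beneath that split cannot be told apart from it. In this balanced design a replicate block cannot change a mean difference, so the Th difference of -1.49 is the same by construction. With the replicate block 0 features were called, with 647 at an unadjusted limma p under 0.05. Signal over background limited Dbh, Slc6a2, Pnmt and Phox2a, which lay under an intensity of 50 in at least 5 of 6 pools.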

Other observations

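The 19 features at least 2 log2 units higher in saline pool 1 than in alcohol pool 2, with values under the floor raised to it, held further genes of neuronal signalling, named here after their values were seen. The peptide genes Cck, Tac1, Nts and Crhbp (a binding protein of the peptide CRH) were higher by 2.46, 2.41, 2.08 and 2.02. The nicotinic receptor subunit Chrna2 was higher by 2.46. Gad1, which makes GABA and is also a Purkinje cell gene, was higher by 2.06 but lower than in each of the 4 cerebellar pools. In the opposite direction, 4 features were at least 2 log2 units higher in alcohol pool 2, among them Ttr, a gene of choroid plexus, with a gap of -2.26. Ttr was highest in alcohol pool 1, at 13.67, and read 6.78 to 9.04 in the other 5 pools. Each of these values comes from a single array.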
